A study of Mus musculus with 3 samples.

Results

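A set of 10 transcription regulators of fat cell formation and of the beige fat programme was listed by symbol: Pparg, Cebpa, Cebpb, Cebpd, Ebf1, Ebf2, Prdm16, Ppargc1a, Zfp423 and Klf4. Of these 10, 9 were measured among the 28692 genes of the matrices. Cebpd was not analysed here. Each was read in all barcodes with at least 500 detected genes and at most 15% mitochondrial UMIs (unique molecular identifiers, which count RNA molecules), by cell class and by library.

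The study exposed C57BL/6 mice to cold or to CL 316,243, an agonist of the β3-adrenergic receptor, and profiled the stromal vascular fraction of inguinal white fat, which holds the cells other than mature adipocytes, with 10x Chromium 3' v3 libraries. One library came from saline-treated mice, 1 from mice kept at 4 C for 3 days and 1 from mice given CL 316,243 by intraperitoneal injection at 1 mg/kg for 3 days. These are called saline, cold and CL below. No group carries a transgene or deletion per the labels, and the number, age and sex of the mice behind each library are not given in the sources used here. With 1 library per condition there is no spread between animals, so no test was run, and a condition cannot be told apart from the animals, dissociation or library that carried it. All intervals are 95% intervals for counting error only.

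In cultured preadipocytes, C/EBPβ and C/EBPδ act early in adipogenesis and switch on PPARγ and C/EBPα, which then hold each other on and drive the genes of lipid storage. Klf4 acts upstream of Cebpb in that cascade, while Zfp423 and the early B cell factors Ebf1 and Ebf2 mark or prepare cells for the adipocyte fate. Prdm16 and Ppargc1a, the coactivator PGC-1α, are known for the thermogenic programme of brown and beige adipocytes, in which Ucp1 is the heat-producing protein. Several of these factors also have roles outside fat: Cebpa and Cebpb in myeloid cells, Ebf1 in B cells, and Pparg, Prdm16 and Klf4 in blood vessels.

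Promoters of 4 members are shown because these are the members called against saline in the Col15a1 stromal cells described below, Pparg and Cebpa higher and Cebpb and Klf4 lower. Each is 300 bases from RefSeq on GRCm38.p6 (mm10), from 250 bases before the transcription start to 50 after, 5′ to 3′ on the gene's strand. Capitals mark matches on either strand to the C/EBP core TTGCG or the cAMP response element core TGACG, which reads CGTCA where it lies on the opposite strand. Among all 32851 promoters of the table, 17.4% hold TTGCG, 20.8% hold TGACG and 1.79% hold the full element TGACGTCA. Pparg has 3 entries, and the one shown starts farthest downstream in the gene.
Pparg, chr6:115421816-115422115, plus strand: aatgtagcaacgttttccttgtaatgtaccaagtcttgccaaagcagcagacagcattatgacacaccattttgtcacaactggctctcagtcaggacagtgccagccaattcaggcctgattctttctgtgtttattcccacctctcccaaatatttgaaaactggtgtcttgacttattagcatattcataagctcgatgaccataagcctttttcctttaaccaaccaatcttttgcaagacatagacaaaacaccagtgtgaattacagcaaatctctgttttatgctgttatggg
Cebpa, chr7:35119043-35119342, plus strand: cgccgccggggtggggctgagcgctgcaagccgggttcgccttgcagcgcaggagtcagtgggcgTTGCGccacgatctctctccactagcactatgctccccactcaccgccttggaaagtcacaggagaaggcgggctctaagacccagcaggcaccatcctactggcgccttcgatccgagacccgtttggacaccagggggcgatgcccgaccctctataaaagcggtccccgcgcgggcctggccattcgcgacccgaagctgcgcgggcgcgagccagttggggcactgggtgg
Cebpb, chr2:167688665-167688964, plus strand: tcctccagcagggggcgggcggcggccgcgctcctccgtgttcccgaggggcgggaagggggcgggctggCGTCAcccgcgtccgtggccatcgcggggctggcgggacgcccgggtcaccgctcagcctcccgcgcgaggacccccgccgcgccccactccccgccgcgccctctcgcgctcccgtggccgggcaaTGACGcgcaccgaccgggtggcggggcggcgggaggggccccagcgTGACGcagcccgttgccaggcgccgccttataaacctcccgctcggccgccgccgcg
Klf4, chr4:55532426-55532725, minus strand: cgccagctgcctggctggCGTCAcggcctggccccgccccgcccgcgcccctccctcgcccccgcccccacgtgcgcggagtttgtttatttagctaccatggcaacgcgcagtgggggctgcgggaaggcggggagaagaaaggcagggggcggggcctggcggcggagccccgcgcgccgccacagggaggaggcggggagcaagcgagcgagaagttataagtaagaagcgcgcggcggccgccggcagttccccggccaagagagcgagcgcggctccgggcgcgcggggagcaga

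The Cebpb window held 3 matches to TGACG, at positions -180, -53 and -7 from the start. The Klf4 window held 1, at -232, and the Cebpa window held 1 match to TTGCG, at -185. None of the 3 Pparg windows held either core, and none of the windows of these 4 genes held the full element. These are letters in a window and not bound sites. Of the other members, Ebf1, Ppargc1a, Prdm16 and Zfp423 have entries, while Ebf2 and Cebpd were not matched.

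The 3 libraries held 7674, 5050 and 7943 barcodes for saline, cold and CL, and 6271, 3862 and 6705 were kept. Median UMIs per kept barcode were 3242, 3624.5 and 3847, and median mitochondrial shares were 5.67%, 6.49% and 4.11%. Between 4 and 9 kept barcodes were shared by any pair of libraries. Cells were clustered without the members and the listed pathway genes, and classes were named from markers that included none of the members. Levels are given as UMIs of the gene per 1000000 UMIs of the class in that library (CPM). Adipose stromal and progenitor cells (ASPC), called ASPC-like from markers such as Pdgfra, Dcn and Col3a1, numbered 1272, 603 and 1106, with median depths of 6440.5, 7407 and 6520.5 UMIs.

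ASPC-like cells fell into subclusters whose sizes differed between libraries. Cells with Pi16 and Dpp4, markers of interstitial progenitors, made up 31.7% of saline, 47.3% of cold and 10.8% of CL ASPC-like cells. Cells with Col15a1, a marker of committed preadipocytes, made up 26.6%, 25.04% and 6.96%, and cells with Gdf10 and Fmo2 12.4%, 17.6% and 10.1%. A subcluster led by Has1 and Ptgs2 held 18.8%, 7.63% and 3.53%. A Lcn2/Cxcl5 subcluster held 3.85% of saline and 42.0% of CL cells and 0 of 603 cold cells, which allows a share of up to 0.498%. A Cxcl9/Saa3 subcluster held 0.943%, 0.166% and 20.6%. It scored 0.80 for the Col15a1 markers and 0.76 for the Lcn2/Cxcl5 markers, so the naming rule also called it Col15a1. It was kept apart by a margin of 1.5 times between the scores that was set after the clusters were seen. Values with both joined are given for the Pparg level, for the member ratios that they change and for the counts of members called. Shares of cells with a UMI, gene lists, adipocyte markers and early gene sums are given for the Col15a1 cells alone. Joining may change these too.

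Across 21 classes with enough cells, only Ebf2 and Klf4 of the 9 measured members had their highest mean level over the 3 libraries in an ASPC-like subcluster. Pparg was highest in endothelial cells, Cebpa and Cebpb in myeloid clusters, Ebf1 in B cells and Prdm16 in endothelial cells. Ppargc1a and Zfp423 stayed low in every class, with mean levels of at most 8.88 and 15.6 CPM. With at most 5% mitochondrial UMIs per cell the count was 3, with Zfp423 added.

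Pparg encodes the nuclear receptor required for adipocyte formation (ENSMUSG00000000440, chromosome 6, 115360951 to 115490399, plus strand). In Gpihbp1 endothelial-like cells it stood at 214 CPM in saline, 194 in cold and 168 in CL, and in pericyte/smooth muscle-like cells at 129.9, 133 and 138. Neither range overlapped that of the next class in the order. Clu/Stmn2 endothelial-like cells, with 68.7, 84.9 and 113 CPM, and Col15a1 ASPC-like cells, with 36.8, 67.9 and 111, followed with overlapping ranges. The Pi16/Dpp4 cells had 2.51, 1.48 and 3.38 CPM from 6, 3 and 2 UMIs. Among subclusters too unevenly filled to rank, Cxcl9/Saa3 cells had 36.6 CPM in CL, from 62 UMIs, and the Lyz2/Cd74 mixed cells 14.8 in saline. No UMI was found in 156 Schwann-like cells (median 2309.5 UMIs), which allows a share of up to 1.92% of cells with a UMI. This and the like limits below are on cells with a UMI at this depth, not on cells expressing the gene.

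Cebpa encodes C/EBPα, which acts with PPARγ in adipocytes and also directs myeloid differentiation (ENSMUSG00000034957, chromosome 7, 35119293 to 35121928, plus strand). Of the 21 classes ranked, the leading ones were 3 macrophage-like or unnamed myeloid clusters, with mean levels of 72.3, 65.0 and 62.1 CPM, followed by Col15a1 ASPC-like cells at 46.2. The ranges over libraries of these neighbours overlapped. Marco/Cd209b macrophage-like cells, too few to rank (34, 27 and 2), had 167 CPM in saline and 91.4 in cold. Within ASPC-like cells, Col15a1 cells stood at 28.6 CPM in saline, 46.4 in cold and 63.7 in CL, against 7.94, 11.8 and 11.8 in Pi16/Dpp4 cells. No Cebpa UMI was found in 247 NK cell-like cells (median 2929 UMIs), which allows up to 1.21% of cells with a UMI.

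Cebpb encodes C/EBPβ, an early and inducible member of the cascade (ENSMUSG00000056501, chromosome 2, 167688915 to 167690418, plus strand). A myeloid cluster led by Chil3 and S100a9 had 1700 CPM in saline, 1995 in cold and 1691 in CL, above every other class in the order. The Has1/Ptgs2 ASPC-like subcluster had 1177, 1410 and 881 CPM, above the other stromal subtypes in each library. Cebpb and Ptgs2 are both inducible genes, and Cebpb was among the leading genes of that subcluster although it took no part in the clustering. Neutrophil-like cells, too few to rank (2, 27 and 29), had 3608, 5672 and 3993 CPM. Migratory dendritic cells were among the lowest classes, with 21.9 CPM over the 3 libraries together and a Cebpb UMI in 8.16% of cells.

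Klf4 encodes a Krüppel-like zinc finger factor that is also an inducible gene (ENSMUSG00000003032, chromosome 4, 55527143 to 55532466, minus strand). The Has1/Ptgs2 subcluster led again with 3146 CPM in saline, 3168 in cold and 3837 in CL, and Pi16/Dpp4 cells followed with 1845, 1784 and 2485. Neither range overlapped that of the next class. Clu/Stmn2 endothelial-like cells had 1756, 1373 and 1360 CPM, which overlapped the 1607, 1461 and 963 CPM of Col15a1 cells. Klf4 was found in every class ranked, and B cell-like cells, the lowest, still had 100.2 CPM and a UMI in 17.2% of cells.

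The early B cell factors divided between classes. Ebf1 (ENSMUSG00000057098, chromosome 11, 44617317 to 45008091, plus strand) had 1039, 902 and 1117 CPM in B cell-like cells of saline, cold and CL, in which it is a lineage factor. Pericyte-like cells had 702, 950 and 772 CPM, which overlapped the B cell range, and Pi16/Dpp4 cells had 517, 516 and 509. Ebf2, known for selecting brown and beige preadipocytes (ENSMUSG00000022053, chromosome 14, 67233292 to 67430918, plus strand), was the most stroma-restricted member. It had 397, 313 and 342 CPM in Has1/Ptgs2 cells, 363, 293 and 321 in Pi16/Dpp4 cells, 188, 149.6 and 229 in Col15a1 cells and 114, 125 and 147 in Gdf10/Fmo2 cells. Pericyte-like cells followed with 141, 95.9 and 109 CPM, Clu/Stmn2 endothelial-like cells with 13.5, 31.1 and 50.1, and every further class of the 21 ranked had a mean of at most 4.49. Of the stromal subclusters not ranked, Lcn2/Cxcl5 cells had 382 CPM in saline and 219 in CL, and Cxcl9/Saa3 cells 176 in CL.

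Prdm16, a zinc finger coregulator that promotes the brown and beige fate (ENSMUSG00000039410, chromosome 4, 154316125 to 154636873, minus strand), was rare in stromal cells. All ASPC-like cells together held 25, 15 and 28 UMIs, which is 3.06, 3.40 and 3.79 CPM. Its highest levels were in vessel classes, with 63.4, 76.4 and 157 CPM in Clu/Stmn2 and 51.3, 66.2 and 91.8 in Gpihbp1 endothelial-like cells. Schwann-like cells had 27.2, 42.1 and 39.1 CPM from 4, 8 and 3 UMIs. In 328 plasmacytoid dendritic cell-like cells (median 3973 UMIs) it had no UMI, which allows up to 0.915% of cells with a UMI.

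Ppargc1a was at the limit of detection, and Zfp423 was low but detected. Ppargc1a (ENSMUSG00000029167, chromosome 5, 51454250 to 51567726, minus strand) gave 74 UMIs in the 16838 kept barcodes, of which ASPC-like cells held 7 in saline, 3 in cold and 3 in CL. Zfp423, a zinc finger factor of preadipocyte commitment (ENSMUSG00000045333, chromosome 8, 87661810 to 87959595, minus strand), gave 242. ASPC-like cells had 10.2, 10.9 and 7.44 CPM of Zfp423 from 83, 48 and 55 UMIs. No Zfp423 UMI was found in 1237 monocyte/macrophage-like cells of the Ccr2/Ms4a4c cluster, which allows up to 0.243% of cells with a UMI.

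**Figure D1:**
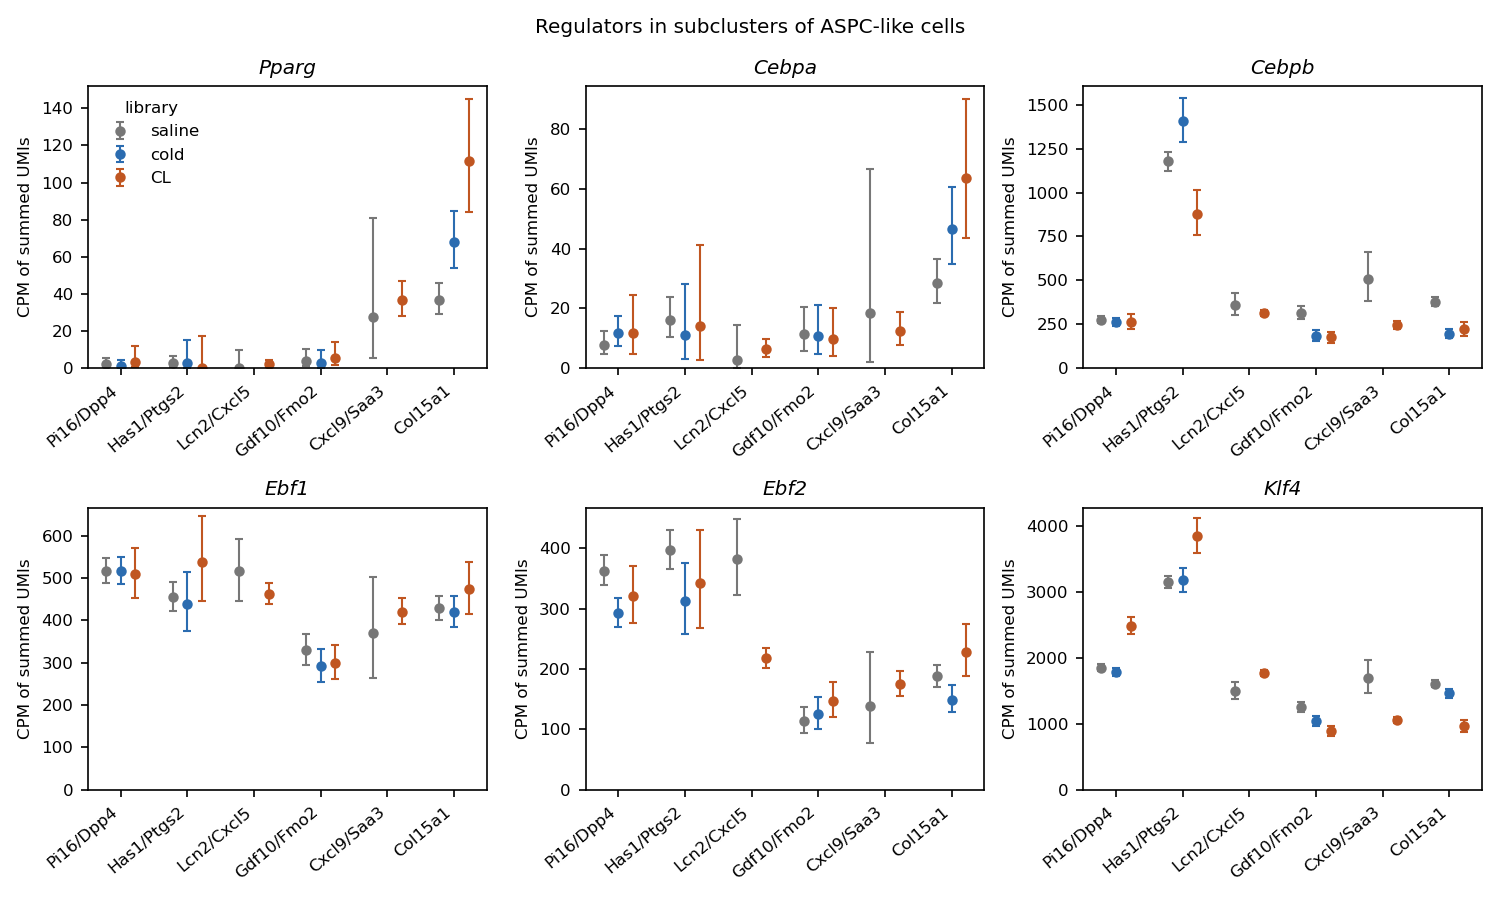
Levels in CPM of 6 members in ASPC-like subclusters, 1 panel per gene, with a point for each library (saline, cold, CL) and bars for the 95% Poisson interval of the UMIs. Pparg and Cebpa are highest in the Col15a1 subcluster, and Cebpb, Klf4 and Ebf2 are highest in or near the Has1/Ptgs2 subcluster.

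The first comparison asked whether 3 days of cold or CL went with other levels of the regulators in stromal cells as a whole. A ratio was called when it was past 1.5-fold with an interval clear of no change and at least 20 UMIs in both libraries together. Over all ASPC-like cells, Cebpb had 498 CPM in saline, 325 in cold and 314 in CL, so both exposed libraries were lower than saline. The log2 ratios were -0.61 (-0.70 to -0.53) for cold over saline and -0.67 (-0.74 to -0.59) for CL over saline. Cebpb was the 1 called member of 8 with enough UMIs in each of these, beside 10.4% and 18.1% of all genes tested. For CL over cold, Cebpa was the 1 of 8, with -0.60 (-1.01 to -0.18), beside 17.9% of all genes. These shares of members, 1 in 8, were near those of all genes.

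The other members differed less over all ASPC-like cells. Pparg had 12.98, 19.2 and 18.4 CPM in saline, cold and CL, higher in both exposed libraries but short of the call, with log2 ratios to saline of 0.57 (0.14 to 0.99) and 0.50 (0.13 to 0.88). Ebf1 had 452, 442 and 435 CPM, with ratios of -0.03 (-0.11 to 0.05) and -0.06 (-0.12 to 0.01). Ebf2 had 278, 225 and 211 CPM and Klf4 1905, 1674 and 1543, both lower in each exposed library, by -0.30 and -0.40 for Ebf2 and by -0.19 and -0.30 for Klf4. Prdm16 intervals reached from -0.88 to 1.13 for cold and from -0.52 to 1.15 for CL, so a difference within these limits was not detectable at this depth.

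The shares of ASPC-like cells with a Cebpb or Klf4 UMI were also highest in saline. Cebpb was found in 75.6%, 72.8% and 70.6% of saline, cold and CL cells as deposited, and in 49.3%, 36.8% and 38.6% after each cell was thinned to 2000 UMIs. Migratory dendritic cells, among the lowest for it (median 4549.5 UMIs), gave 8.16% and 3.90%. For Klf4 the shares were 96.8%, 95.2% and 93.5%, or 89.6%, 85.2% and 83.5% thinned, against 17.2% and 14.8% in B cell-like cells (median 2052 UMIs). Pparg was found in 6.604%, 9.95% and 8.41% of cells, but thinned shares of 2.83%, 3.90% and 2.63% put only cold above saline.

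The Cebpb difference over all ASPC-like cells moved with the makeup of the class. Has1/Ptgs2 cells, in which Cebpb was highest, were 18.8% of saline ASPC-like cells and under 8% of those of either exposed library. With the subtype shares of saline given to every library, the ratios were -0.13 for cold and -0.38 for CL, and neither was called. This setting used only subtypes with cells in every library, so it left out the Lcn2/Cxcl5 subcluster, 42.0% of CL ASPC-like cells. Cxcl9/Saa3 cells entered cold from 1 cell, and the interval was the main one shifted to the new value. The values with saline shares thus do not reflect makeup alone. Without the Has1/Ptgs2 subcluster the ratios were -0.58 and -0.20. In the Pi16/Dpp4 subtype alone, Cebpb had 277, 262 and 262 CPM in saline, cold and CL, with ratios of -0.08 (-0.24 to 0.09) and -0.08 (-0.34 to 0.18). The saline makeup also turned the Cebpa ratio of CL over cold from -0.60 to 0.27.

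**Figure D2:**
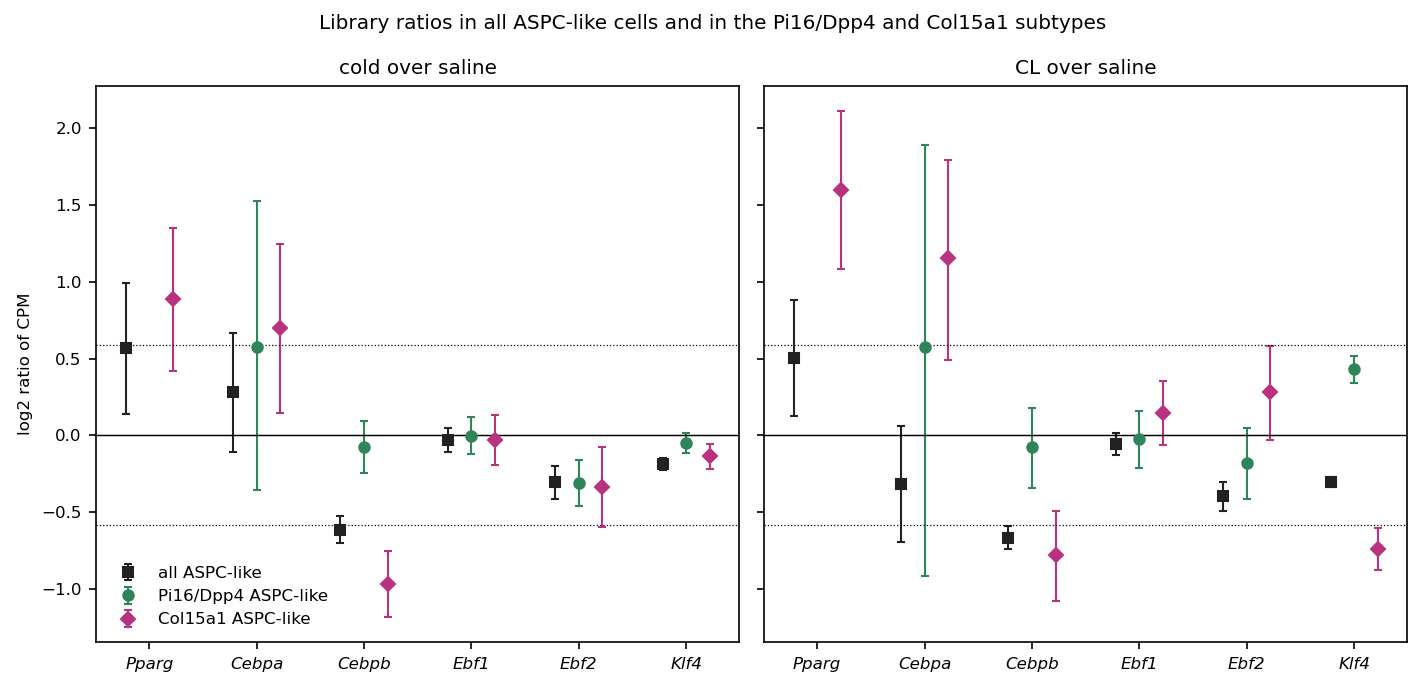
Log2 ratios of member levels for cold over saline and CL over saline in all ASPC-like, Pi16/Dpp4 and Col15a1 cells, with 95% counting intervals and dotted lines at 1.5-fold. Members with at least 20 UMIs are drawn; Pparg and Cebpa lie above 0 and Cebpb below 0 in Col15a1 cells, whereas most members of Pi16/Dpp4 cells lie near 0.

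In Col15a1 cells, Pparg and Cebpa were higher and Cebpb was lower in both exposed libraries than in saline. Pparg had 36.8 CPM in saline, 67.9 in cold and 111 in CL, from 81, 79 and 56 UMIs in 338, 151 and 77 cells. The levels rank saline, cold, CL, with log2 ratios to saline of 0.88 (0.42 to 1.35) for cold and 1.60 (1.08 to 2.11) for CL. Cebpa, at 28.6, 46.4 and 63.7 CPM, ranked the same way, with 0.70 (0.15 to 1.25) and 1.16 (0.49 to 1.79). It stayed called in 7 of 13 alternatives for cold and 8 of 12 for CL, counts that can include settings which leave a ratio unchanged. Neither Cebpa ratio was called with at most 5% mitochondrial UMIs (0.51 and 0.74) or thinned to 2000 UMIs (0.55 and 0.89). Cebpb stood at 379, 194 and 221 CPM, highest in saline, with -0.96 (-1.18 to -0.75) and -0.78 (-1.08 to -0.49). Klf4 stood at 1607, 1461 and 963 CPM, lower in both but called in CL alone, with -0.14 (-0.22 to -0.05) and -0.74 (-0.88 to -0.60). With at most 5% mitochondrial UMIs per cell the CL value was -0.49, not called.

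Of the 7 members with at least 20 UMIs, 3 were called for cold over saline in Col15a1 cells (2 higher and 1 lower), beside 12.9% of all genes, and 4 for CL over saline (2 higher and 2 lower), beside 14.6%. For CL over cold, 3 of 6 were called, beside 9.41%: Pparg at 0.72 (0.19 to 1.23), Ebf2 at 0.61 (0.26 to 0.96) and Klf4 at -0.60 (-0.75 to -0.45). Each of these 3 missed the call in 5 of 12 alternatives. Ebf1, at 428, 419.5 and 474 CPM, was called in none of the 3. Prdm16 gave 5, 2 and 1 UMIs and Ppargc1a 3, 2 and 1, too few for a ratio. Ucp1 had 2 UMIs in the cold Col15a1 cells and none in the other libraries.

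The values of Pparg and Cebpa depended on where the Col15a1 borders were drawn. With the Cxcl9/Saa3 cells joined to the Col15a1 cells, as the naming rule alone would have it, Pparg stood at 36.4 CPM in saline, 67.3 in cold and 53.8 in CL. CL over saline was then 0.56, which was not called, and CL over cold turned to -0.32. Cold over saline was 0.89, but only 12 saline cells and 1 cold cell were added. Cebpa turned to -0.22 for CL over saline and was 0.71 for cold. Cebpb stayed called at -0.99 and -0.69, and Klf4 at -0.64 for CL. In the joined cells 3 of 7 members were called for cold, beside 13.1% of all genes, and 2 of 7 for CL, beside 17.1%. For CL over cold, Ebf2 fell short at 0.34 and Klf4 at -0.49, and Cebpa at -0.93 was the 1 of 7 called, beside 14.9%.

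The Col15a1 cells themselves were not uniform. At resolution 1 they fell mainly into subcluster 4, led by Fabp4 and Car3, with 151 saline, 88 cold and 55 CL cells, and subcluster 5, led by Col4a1 and Nrep, with 189, 62 and 18. Subcluster 5 thus held most of the saline cells and subcluster 4 most of the cold and CL cells. In saline Pparg stood at 60.5 CPM in subcluster 4 and 18.3 in subcluster 5. For cold over saline it was 0.40 (-0.16 to 0.96) in subcluster 4, not called, and 1.47 (0.58 to 2.37) in subcluster 5, while Cebpa was 0.94 and 0.40, the latter not called. Cebpb was called in both, at -0.76 and -0.95. For CL over saline in subcluster 4, Pparg was 1.12, Cebpa 1.45 and Cebpb -0.62, all called, and subcluster 5 had too few CL cells for a ratio.

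A few cells carried much of the CL value. The 3 CL cells richest in Pparg held 21 of its 56 UMIs, against 10 of 81 in saline and 11 of 79 in cold. Without the 3 richest cells of each library, Pparg was 0.86 for cold and 1.11 for CL, and Cebpa was 0.54 and 0.57, neither called. Pparg was found in 18.6%, 35.8% and 37.7% of saline, cold and CL Col15a1 cells, and thinned to 2000 UMIs in 9.61%, 14.3% and 13.5%. Levels thinned to 2000 UMIs gave ratios of 0.68 and 0.78, neither called. Thinned to 1000 UMIs the shares were 4.14%, 3.97% and 6.49%, from 14, 6 and 5 cells, so cold was no longer above saline. The 5 adipocyte markers Adipoq, Plin1, Cidec, Lep and Retn summed to 2.72, 6.02 and 49.8 CPM from 6, 7 and 25 UMIs, with Cidec and Lep at 0 in all 3 libraries, and their part in the result was not tested.

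Of all genes tested in Col15a1 cells, 8.45% were called higher and 4.48% lower for cold over saline, and 8.64% higher and 5.94% lower for CL over saline. The genes that PPARγ and adipocyte differentiation switch on were taken from a list of 25, of which 14 had enough UMIs in Col15a1 cells. For cold over saline, 3 were higher and 2 lower, with a median log2 ratio of 0.52 against 0.12 over all genes. Fabp4, a fatty acid binding protein, had 1537 CPM in saline, 2333 in cold and 2835 in CL, with ratios of 0.60 and 0.88. For CL, 6 were higher and 2 lower, with a median of 0.42 against 0.06. Among them were the lipid enzymes Acsl1 (2.37), Lipe (2.26) and Agpat2 (1.70). Not all members of the list went the same way: Angptl4, a PPAR-responsive inhibitor of lipoprotein lipase, was 347 CPM in saline and 183 in cold (-0.92).

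A list drawn up as regulators that hold adipogenesis back included more lower than higher genes in the same cells. The role of each listed gene was not checked here, and some may act otherwise. Of 23 listed, 18 had enough UMIs for cold, 1 higher and 4 lower, with a median of -0.17. The lower ones were Klf6 (-0.97), Klf2 (-0.80), Foxo1 (-1.07) and Sox9 (-1.10). For CL, 1 was higher and 4 lower of 17, with a median of -0.30, and these were Klf2 (-1.21), Klf6 (-0.92), Id3 (-0.96) and Id2 (-0.77). Klf2 and Klf6 are also inducible genes, as Cebpb and Klf4 are.

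Other regulators that favour adipogenesis, 22 listed, showed no one direction in Col15a1 cells: 1 higher and 3 lower of 20 for cold and 1 higher and 2 lower of 19 for CL. Rxra, the partner receptor of PPARγ, was higher in cold (0.66), Zfp467 was higher in CL (1.72), and Plagl1 was lower in both (-1.59 and -1.05). Of 22 beige regulators and Prdm16 partners, 2 were lower of 17 for cold, the orphan receptors Nr4a1 (-0.98) and Nr4a3 (-0.96). For CL, Hoxc10 was higher (0.69) and Sirt1 (-1.35) and Tbx15 (-1.08) were lower of 15. Of 17 beige and mitochondrial thermogenic genes, 1 had enough UMIs, Cox8b, and it was not called against saline.

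The Pi16/Dpp4 cells, by contrast in values and without a test of the difference, kept similar levels of most members in all 3 libraries. Ebf1 had 517, 516 and 509 CPM and Cebpb 277, 262 and 262, as given above. Of 7 members, 1 was called for cold over saline, beside 7.48% of all genes, and none of 6 for CL over saline, beside 6.82%, or for CL over cold, beside 7.12%. The 1 was Zfp423, at 7.94, 15.3 and 5.07 CPM from 19, 31 and 3 UMIs, with 0.95 (0.08 to 1.85) for cold. It was not called with each cell weighted the same (0.80) or thinned to 2000 UMIs (0.06). The thinned value rests on 8 saline and 6 cold cells with a UMI, too few to decide the part of depth. Thinned to 1000 UMIs, 0.995% of saline and 2.11% of cold cells had a UMI, from 4 and 6 cells. Klf4 was higher in CL, 2485 CPM against 1845 in saline, but below the fold for a call (0.43).

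In Gdf10/Fmo2 cells, a stromal population described as regulatory, Cebpb had 316.3 CPM in saline, 185 in cold and 175 in CL. Both exposed libraries were lower, by log2 ratios of -0.77 (-1.07 to -0.48) and -0.85 (-1.17 to -0.55). It was the 1 called of 4 members in each, beside 9.40% and 11.4% of all genes. Klf4 had 1254, 1039 and 887 CPM, Ebf1 330, 292 and 300, and Pparg 4.15, 2.69 and 5.60 from at most 4 UMIs.

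A list of 12 immediate early genes, such as Fos, Jun and Egr1, which tissue dissociation also induces, was summed beside these values. It was chosen after the data were seen. In Col15a1 cells the sum was 17808 CPM in saline, 16818 in cold and 11369 in CL, and all 12 genes had a ratio below 0 for CL over saline, of which 8 were called. For cold over saline 9 were below 0, with 1 called higher and 1 lower. In Gdf10/Fmo2 cells it was 13072, 10419 and 9233, and in Pi16/Dpp4 cells 10764, 11271 and 10991. Over all ASPC-like cells it was 13095, 12931 and 9889, so cold was near saline there. In Has1/Ptgs2 cells it was lowest in saline, at 12144, 15769 and 15660. In Lcn2/Cxcl5 cells it was 7022 in saline and 8061 in CL. The part of the early genes in the Cebpb and Klf4 values was not tested.

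Vessel cells held the highest Pparg and Prdm16 levels, and in them Klf4 and Cebpb were lower in both exposed libraries. In Gpihbp1 endothelial-like cells, which line fat capillaries, Klf4 had 1295 CPM in saline, 707 in cold and 596 in CL, with log2 ratios to saline of -0.87 (-1.03 to -0.71) and -1.12 (-1.31 to -0.93). Cebpb had 87.9, 47.3 and 64.1 CPM, with -0.89 (-1.54 to -0.26) called for cold and -0.46 not called for CL. The cold value was not called with at least 1000 genes per cell (-0.42), thinned to 2000 UMIs (-0.78) or with at most 5% mitochondrial UMIs (-0.87). Prdm16 had 51.3, 66.2 and 91.8 CPM, with 0.84 (0.15 to 1.56) called for CL. It was not called with at most 5% mitochondrial UMIs (0.79) or at least 1000 genes (0.59). Thinned to 2000 UMIs it came to -0.04, but only 107 of 219 saline and 118 of 236 CL cells remained. Thinned to 1000 UMIs, with 211 and 222 cells, the shares with a Prdm16 UMI were 6.16% and 11.3%. Depth was thus not told apart from the choice of cells. Pparg was called in neither, at -0.14 (-0.50 to 0.21) and -0.35 (-0.75 to 0.05). In all, 2 of 5 members were called for cold, beside 12.7% of all genes, 2 of 5 for CL, beside 12.2%, and 0 of 6 for CL over cold, beside 8.06%.

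**Figure D3:**
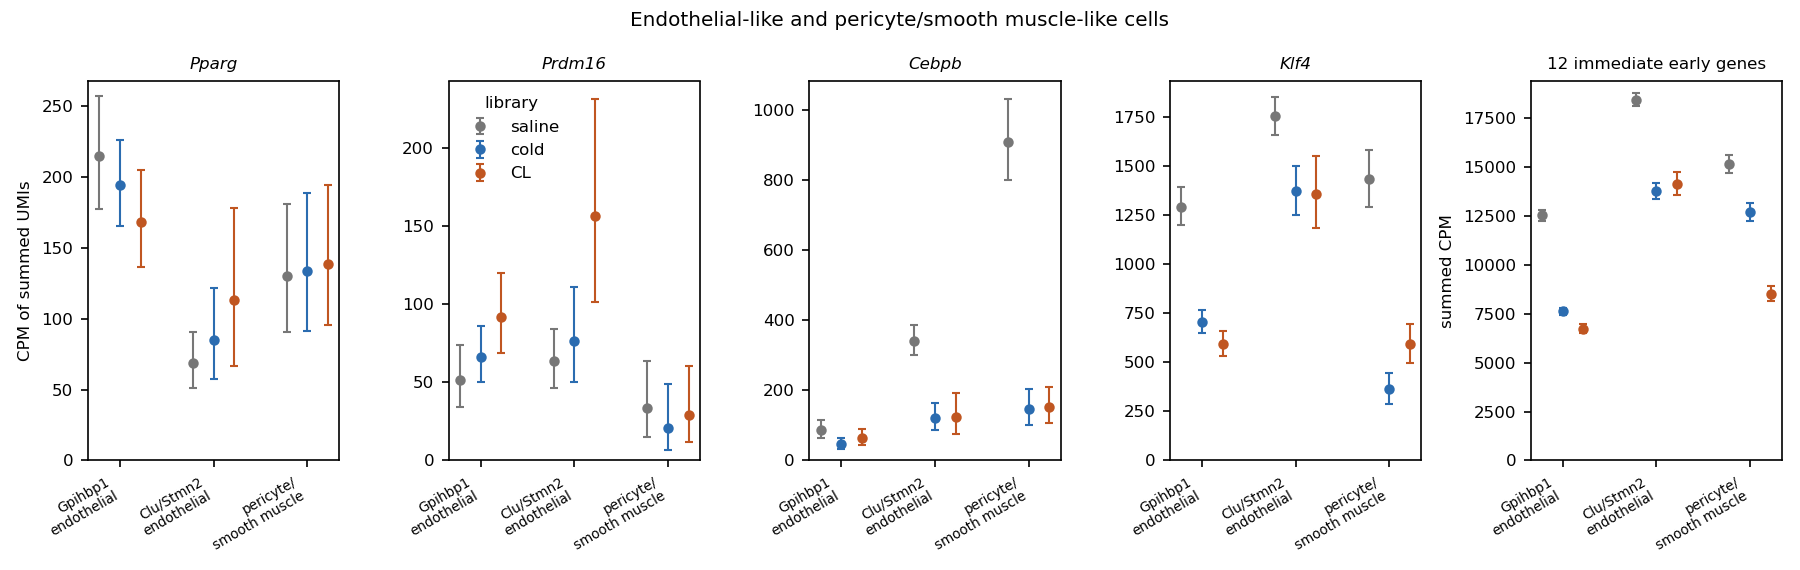
Levels in CPM of Pparg, Prdm16, Cebpb and Klf4, and the summed level of 12 immediate early genes, in Gpihbp1 endothelial-like, Clu/Stmn2 endothelial-like and pericyte/smooth muscle-like cells, by library with 95% Poisson intervals. Klf4, Cebpb and the early genes are highest in saline in all 3 classes, while Pparg intervals overlap between libraries within each class.

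Pericyte-like cells numbered 64 in saline, 36 in cold and 50 in CL. Cebpb had 910 CPM in saline, 146 in cold and 151 in CL, and Klf4 1433, 363 and 592. For CL over saline the log2 ratios were -2.59 (-3.14 to -2.08) and -1.28 (-1.56 to -0.99), and these were the 2 called of 5 members, beside 19.8% of all genes. Pparg differed little, by 0.09 (-0.64 to 0.82). With at most 5% mitochondrial UMIs Cebpb was -1.85 (-3.90 to 0.12), not called. The cold library had fewer than the 50 cells required for a ratio.

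The summed early genes were highest in saline in each vessel class. In Gpihbp1 endothelial-like cells they came to 12516, 7622 and 6732 CPM, and all 12 genes had a ratio below 0 in both comparisons with saline, of which 6 were called for cold and 10 for CL. In pericyte-like cells they came to 15150, 12699 and 8515 CPM. Their part in the Klf4 and Cebpb values was not tested. Ucp1 (ENSMUSG00000031710, chromosome 8, 83290352 to 83298452, plus strand) gave 9, 148 and 28 UMIs in all kept cells of saline, cold and CL, of which Gpihbp1 endothelial-like cells held 2, 91 and 5. Of the 91 in cold, 3 cells held 47, and 27 of 209 cells had any. B cell-like cells held 0, 19 and 0, and ASPC-like cells 0, 3 and 0. Whether free RNA or doublets gave these UMIs was not tested.

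In plasmacytoid dendritic cell-like cells, Cebpb had 32.3 CPM in saline, 135 in cold and 104 in CL, from 20, 55 and 34 UMIs. Here the exposed libraries were the higher ones, with 2.07 (1.31 to 2.88) and 1.69 (0.85 to 2.56). With at most 5% mitochondrial UMIs these were 0.67 (-2.10 to 3.24) and 1.14 (-0.58 to 3.23), neither called. Klf4 in the same cells had 349, 155 and 214 CPM, lower in both exposed libraries, with -1.17 and -0.70, the latter -0.39 and not called when thinned to 2000 UMIs. These made 2 of 4 members called in each comparison, beside 15.3% and 12.8% of all genes. The early gene sum in these cells was 11535, 3889 and 3979 CPM.

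Over 27 classes and subclusters, with UMIs summed over libraries, the pattern of each member was compared with that of 7004 other genes by Pearson's r of log2(CPM + 10), as a description of classes that share libraries and depth. The genes most like Pparg were Sema6b (0.86), Cd300lg (0.86) and Fabp4 (0.83). Those most like Cebpa were Psap (0.85), Cd68 (0.85) and Mfsd12 (0.85), and like Cebpb, Prdx5 (0.86), Sgms2 (0.85) and Pgd (0.85). Ebf2 went with Ddr2, Twist1 and Slc4a4 (each 0.99), and Ebf1 with Heg1 (0.89). Prdm16 went with Fam181b (0.97), Magi1 and Palmd (both 0.96), and Klf4 with Nfix (0.93), Laptm4a (0.91) and Thbd (0.905).

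Among the members themselves, Ebf2 and Zfp423 were the most alike pair (0.82), and Klf4 stood at 0.78 with each of them. Pparg stood at 0.56 with Prdm16 and 0.27 with Cebpa. Within Col15a1 cells thinned to 2000 UMIs, 63 of 554 cells had a Pparg UMI, 34 had a Cebpa UMI and 5 had both. Cebpa was found in 7.94% of the cells with Pparg and in 5.91% of those without, a difference of about 1 cell that these numbers cannot resolve.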

How the data were processed

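The values analysed are raw UMI counts, deposited by the authors as 1 gene-by-barcode matrix per library and written by Cell Ranger 3.0.2 per the file headers, on build mm10 per the submitters' processing notes. Aligner settings, annotation and cell calling are not given in the sources used here. Totals were 25875379, 19899223 and 29323106 UMIs for saline, cold and CL. Of 20667 barcodes, 16838 with at least 500 genes and at most 15% mitochondrial UMIs were kept. Coordinates came from a GENCODE annotation of mm10, to which 28339 of 28692 gene IDs matched, and promoters from RefSeq (GRCm38.p6).

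Cells were scaled to 10000 counts and log-transformed. With 2000 variable genes that left out members and listed genes, 30 components, 15 neighbours and seed 1, Leiden clusters were made at resolution 1, and at 0.6 within ASPC-like cells (scanpy 1.11.5, leidenalg 0.10.2, numpy 2.4.6, scipy 1.17.1, pandas 2.3.3, matplotlib 3.10.9). Names needed 3 markers at 50 CPM. Scrublet called 86, 4 and 64 doublets. The cold share, 0.104%, shows that it did not work there, so its calls were removed only as an alternative. Free RNA was not subtracted.

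UMIs were summed per class and library. Levels carry exact Poisson intervals, shares Clopper-Pearson intervals and ratios exact conditional intervals, all at 95% and for counting error only. Upper limits for a count of 0 are 3 counts. The interval method was checked on simulated counts. Ratios needed 50 cells per library, and class orders needed 50 cells in all and 10 per library. All members were named, with up to 4 genes per list and comparison whose interval lay farthest from 0, and the 3 genes most like each member. Members and lists were chosen with earlier results of these data known. Alternatives covered doublets, immune UMIs, mitochondrial and gene limits, size factors, cell weighting, thinning, rich cells, subtype makeup and clustering.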

Additional observations from a re-analysis of the deposited data

Results flagged for a closer look

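Some members differed between libraries in opposite directions in different classes, each with an interval clear of no change; the differences between classes were not tested. All values are log2 ratios. For CL over saline, Pparg was 1.60 in Col15a1 ASPC-like cells and -1.23 in the Chil3/S100a9 myeloid cluster, and Cebpa was 1.16 in Col15a1 cells and -0.87 in Saa3/Adgre1 macrophage-like cells. Cebpb was 1.69 in plasmacytoid dendritic cell-like cells and -2.59 in pericyte/smooth muscle-like cells. Klf4 was 0.77 in B cell-like cells and -1.28 in pericyte-like cells.

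For cold over saline, Cebpb was 2.07 in plasmacytoid dendritic cell-like cells and -1.49 in Clu/Stmn2 endothelial-like cells. For CL over cold, Klf4 was 0.91 in B cell-like cells and -0.83 in Cd209a dendritic cell-like cells.

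The barcodes left out by the limits on genes and mitochondrial UMIs also held Cebpb. In the 1238 left out of the CL library its level was 518 CPM (480 to 559), against 205 CPM (182 to 231) in saline and 106 in cold. The neutrophil gene S100a8 had 876, 132 and 16.8 CPM in the same barcodes of CL, saline and cold.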

How the results depend on the processing

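No paired analysis was possible because each condition has 1 library and the labels number no replicates, so no library could be left out either. Leaving out cells with immune UMIs gave no value for plasmacytoid dendritic cell-like cells, which are immune cells. Of 1127 single-gene values under alternatives, 1028 lay within the main counting interval, 95 outside it and 4 turned sign. These ratio alternatives were run only in all ASPC-like, Col15a1, Pi16/Dpp4, Gdf10/Fmo2, Gpihbp1 endothelial-like, pericyte/smooth muscle-like and plasmacytoid dendritic cell-like cells. Of 26 ratios called there, 22 kept their sign in every alternative and 8 were called in every one. An alternative can leave a ratio as it was, which raises the counts of values within the interval and of calls kept. For Klf4, CL over saline, in pericyte/smooth muscle-like cells the highest value, -1.28, was the same as the main one. The flagged values of the Chil3/S100a9, Saa3/Adgre1, B cell-like, Cd209a and Clu/Stmn2 clusters had no alternatives. The sign turned for Cebpa, CL over cold, in all ASPC-like cells (0.27 with the saline subtype makeup), for Cebpa, CL over saline (-0.22), and Pparg, CL over cold (-0.32), in Col15a1 cells joined with Cxcl9/Saa3 cells, and for Prdm16, CL over saline, in Gpihbp1 endothelial-like cells (-0.042, thinned to 2000 UMIs). The cause was not tested. Of 8 members, 1 was called per comparison over all ASPC-like cells. For cold over saline this was 2 without the Scrublet calls, without cells holding immune UMIs or without the Lyz2/Cd74 mixed subcluster, and 0 with at most 5% mitochondrial UMIs or without the Has1/Ptgs2 subcluster. For CL over saline it was 2 with each cell weighted the same, thinned to 2000 UMIs or with the saline makeup, and 0 in Pi16/Dpp4 cells alone or without the Has1/Ptgs2 subcluster. For CL over cold it was 2 with at most 5% mitochondrial UMIs, without the 3 richest cells or without the Has1/Ptgs2 subcluster. It was 0 with median-of-ratios size factors or in Pi16/Dpp4 cells alone. The members behind these counts can differ from the main one: with the saline makeup Cebpb was not called for CL over saline (-0.38). Apart from Pi16/Dpp4 cells alone, no share of all genes called is given for these settings. Leaving out the mixed or Has1/Ptgs2 subcluster, joining Cxcl9/Saa3 cells, taking each resolution 1 subcluster alone, and trying the other alternatives outside all ASPC-like cells were choices made after seeing the data. Depth limits Prdm16, Ppargc1a and Zfp423 most, with 432, 74 and 242 UMIs in all kept cells.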
